A study of Mus musculus with 6 samples.

Results

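The Ifitm genes encode interferon-induced transmembrane proteins. They were taken as every row of the deposited count table whose symbol begins with Ifitm and a digit, which gave 5 of 14535 gene rows: Ifitm1, Ifitm2, Ifitm3, Ifitm5 and Ifitm6. Ifitm7 and Ifitm10 are also annotated in the mouse but have no row in the count table, so the family here means these 5 genes. The family was chosen by its measured difference between IRF4-deficient and wild-type (WT) cells in these same libraries, so its values are given as a description and carry no test. RNA was sequenced from splenic type 2 conventional dendritic cells (cDC2s) of C57BL/6 mice, with 3 libraries from CD11c-Cre Irf4fl/fl mice and 3 from WT mice. In the CD11c-Cre Irf4fl/fl mice, called IRF4-deficient here, Cre recombinase driven by the CD11c (Itgax) promoter deletes the floxed part of Irf4 in cells that express CD11c, which is not limited to cDC2s. No group carries Cre alone, so the transgene and the floxed allele cannot be told apart from loss of Irf4. The labels give no age, sort gate or number of animals per library, so the spread between libraries may be technical.

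IFITM proteins are short proteins of the CD225 family that sit in cell membranes and hinder the fusion of enveloped viruses with the host cell. In human cells IFITM1 is found mostly at the cell surface and IFITM3 mostly in endosomes. Several genes of the family are classical targets of interferon, whose receptors signal through STAT and IRF transcription factors to elements built from GAAA boxes. Ifitm5 is best known from bone-forming osteoblasts. IRF4 belongs to the same transcription factor family as the IRFs that act below the interferon receptors, and is used by cDC2s for their development and migration.

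The targeted gene matched the labels, with Irf4 at 90.8, 65.3 and 83.95 CPM in the IRF4-deficient libraries and 291.8, 295.8 and 345.0 CPM in the WT libraries. CPM is the count scaled to the library's total with TMM factors, which align the libraries on the bulk of their genes. Library totals ran between 7949462 and 10609420 counts in IRF4-deficient and between 7421605 and 11459920 in WT cells. Of 8 cDC2 markers, 1 was called higher in edgeR's test and 2 lower, where 9.87% of all tested genes were called higher and 10.5% lower. Itgam (CD11b) averaged 1869 ± 131 CPM in IRF4-deficient cells, against 617 ± 41.5 CPM in WT cells (SD, n = 3 each). Sirpa averaged 981 ± 43.6 CPM in IRF4-deficient cells, against 909 ± 7.32 CPM in WT cells (SD, n = 3 each). Cd4 fell to 131.3 CPM in IRF4-deficient cells, against 554.8 CPM in WT cells (edgeR adjusted p = 2.016e-10), and Cd209a to 128.6 CPM, against 317.8 CPM in WT cells (edgeR adjusted p = 3.087e-07). Clec10a (3.54 CPM in IRF4-deficient libraries, against 3.50 CPM in WT libraries) and Mgl2 (1.06 CPM in IRF4-deficient libraries, against 0.885 CPM in WT libraries) were near the limit of detection.

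All 5 genes lie in 1 cluster of 69.0 kb on chromosome 7 of GRCm38 (140948958 to 141017924), in the order Ifitm5, Ifitm2, Ifitm1, Ifitm3 and Ifitm6. Ifitm1 (140967221 to 140969825) is on the plus strand and the other 4 are on the minus strand. Ifitm2 (140954837 to 140955987), Ifitm3 (141009586 to 141010770) and Ifitm5 (140948958 to 140950291) have 1 annotated transcript of 2 exons each. Ifitm1 and Ifitm6 (141015699 to 141017924) have 3 transcripts each, with a start of their own for every transcript. The promoters of the 4 members with a substantial count are shown because the levels of these genes differed by unequal amounts between genotypes. Each runs from 250 bases before to 50 bases after a transcript start, 5′ to 3′ on the gene's own strand, as given by RefSeq on GRCm38.p6. Capitals mark matches to a double GAAA box, which is GAAA, any 2 bases and GAAA again, as in interferon-stimulated response elements, searched on both strands.
Ifitm1 promoter: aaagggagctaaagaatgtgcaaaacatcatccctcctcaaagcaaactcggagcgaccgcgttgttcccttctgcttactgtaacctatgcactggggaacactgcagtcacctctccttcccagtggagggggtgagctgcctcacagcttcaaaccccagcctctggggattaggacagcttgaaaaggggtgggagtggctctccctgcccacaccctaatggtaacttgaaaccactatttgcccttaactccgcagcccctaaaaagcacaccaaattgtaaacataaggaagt
Ifitm2 promoter: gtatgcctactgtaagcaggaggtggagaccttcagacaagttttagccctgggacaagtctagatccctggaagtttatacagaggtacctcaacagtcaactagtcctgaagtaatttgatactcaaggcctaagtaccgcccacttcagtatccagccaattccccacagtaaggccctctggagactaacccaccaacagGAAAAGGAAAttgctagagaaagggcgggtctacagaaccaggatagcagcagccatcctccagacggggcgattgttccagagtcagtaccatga
Ifitm3 promoter: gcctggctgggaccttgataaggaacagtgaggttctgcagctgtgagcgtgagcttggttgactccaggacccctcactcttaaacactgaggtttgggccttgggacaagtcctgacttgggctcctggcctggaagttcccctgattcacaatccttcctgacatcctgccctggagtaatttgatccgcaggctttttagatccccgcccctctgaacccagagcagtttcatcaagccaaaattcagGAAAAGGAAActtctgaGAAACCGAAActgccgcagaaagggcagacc
Ifitm6 promoter: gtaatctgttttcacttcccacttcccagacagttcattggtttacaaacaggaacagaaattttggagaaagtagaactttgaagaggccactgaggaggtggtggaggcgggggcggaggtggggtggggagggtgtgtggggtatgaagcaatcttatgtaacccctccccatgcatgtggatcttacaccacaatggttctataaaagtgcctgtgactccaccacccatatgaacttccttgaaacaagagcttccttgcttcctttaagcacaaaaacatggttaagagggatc
The windows are chr7:140967826-140968125 on the plus strand for Ifitm1, and chr7:140955912-140956211, chr7:141010695-141010994 and chr7:141016843-141017142 on the minus strand for Ifitm2, Ifitm3 and Ifitm6. Ifitm3 held 2 matches, at bases 253 to 262 and 270 to 279 of its window, just past the start at base 251. Ifitm2 held 1, at bases 205 to 214. The letters of the Ifitm2 match and of the first Ifitm3 match are the same, GAAAAGGAAA, while the second Ifitm3 match reads GAAACCGAAA. Ifitm1, Ifitm5 and Ifitm6 held none in these windows. Of 32851 promoter windows of the same length over 27025 genes, 3.44% held at least 1 match. The Ifitm1 and Ifitm6 windows belong to starts 855 and 1032 bases downstream of the first annotated start of each gene, so neither covers that first start.

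Other elements of the same factors were searched in the same way. The ETS-IRF composite, GGAA, any 2 bases and GAAA, the form to which PU.1 and IRF4 or IRF8 bind together, had 2 matches in the Ifitm6 window (bases 10 to 19 and 52 to 61) and 0 in the windows of the other 4 genes, against 2.72% of all windows. The STAT-type element TTCNNNGAA, which reads the same on both strands, occurred in Ifitm3 (bases 264 to 272, overlapping the second double GAAA box) and in Ifitm6 (bases 241 to 249), against 8.3% of all windows. Elements that join IRF with AP-1 factors, TTTC, any 4 bases and TGA, or GAAATGA, had 0 matches in the 5 windows and occur in 4.56% and 5.45% of all windows. A match describes the letters only, since no binding was measured.

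Ifitm1 showed the widest gap between genotypes in the family. Its counts were 4079, 2797 and 3613 in the IRF4-deficient libraries and 178, 271 and 191 in the WT libraries. In CPM this was 375, 346 and 402 in IRF4-deficient cells, against 24.6, 24.6 and 26.1 in WT cells. Every IRF4-deficient library lay far above every WT library, and the libraries of a group lay close together, with a coefficient of variation of 7.56% in IRF4-deficient and 3.36% in WT cells. The level was 14.9-fold higher in IRF4-deficient cells, a log2 fold change of 3.90 (SE 0.105). Of the 11934 genes that passed the filter on low counts, 19 had a larger increase.

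Ifitm2, whose product resembles Ifitm3, stood at 176, 242 and 193 CPM in IRF4-deficient cells and 100.1, 71.8 and 67.8 CPM in WT cells. The groups did not overlap, although the lowest IRF4-deficient and the highest WT library were closer than for Ifitm1. The level was 2.55-fold higher in IRF4-deficient cells (log2 fold change 1.35, SE 0.15), and 2.88% of tested genes had a larger increase. Ifitm2 varied more within a group, with a coefficient of variation of 16.7% in IRF4-deficient and 22.1% in WT cells.

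Ifitm3, the member best known for blocking influenza virus in mice and humans, stood at 437.5, 533 and 609.7 CPM in IRF4-deficient cells and 502, 421 and 340.2 CPM in WT cells. These groups overlapped, as WT replicate 1 lay above IRF4-deficient replicate 1. The means were 527 ± 86.3 CPM in IRF4-deficient cells, against 421 ± 80.8 CPM in WT cells (SD, n = 3 each), a log2 fold change of 0.32 (SE 0.15), and their difference of means was close to the spread within a group. The summed level of 11 red pulp macrophage markers ran in the same order as Ifitm3 over the IRF4-deficient libraries, with 1945, 2722 and 3527 CPM in replicates 1, 2 and 3. In WT replicates 1, 2 and 3 that sum was 1477, 1745 and 1341 CPM, which is not the order of Ifitm3 there. The order in the IRF4-deficient libraries was not particular to that list, as the 8 cDC2 markers summed to 3065, 3314 and 3405 CPM there. The monocyte, plasmacytoid dendritic cell, neutrophil and T cell lists ran in that order too, while others, such as the B cell list, did not. The part of red pulp macrophages in the Ifitm3 level was not tested. Ifitm6 ran in the same order over the IRF4-deficient libraries, and Ifitm1 and Ifitm2 did not.

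Ifitm6, a family member at the far end of the cluster, was the 1 member lower in IRF4-deficient cells. It stood at 116, 149.7 and 151 CPM in IRF4-deficient cells and 179, 158 and 153 CPM in WT cells. The groups did not overlap, but the highest IRF4-deficient and the lowest WT library nearly met. The log2 fold change was -0.24 (SE 0.11), a 1.18-fold lower level.

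Ifitm5 was near the limit of detection, with counts of 29, 49 and 43 in the IRF4-deficient libraries and 11, 11 and 15 in the WT libraries. This came to 4.50 ± 1.71 CPM in IRF4-deficient cells, against 1.52 ± 0.524 CPM in WT cells (SD, n = 3 each), with a log2 fold change of 1.57 (SE 0.49). Its groups did not overlap, and its SE was the widest of the 5 genes. All 5 members passed the filter on low counts. In 4 of the 5 the groups did not overlap, which was also the case for 35.6% of all tested genes, and in 3 of these the IRF4-deficient libraries were the higher ones, as in 17.5% of all tested genes. Nothing is read from these counts, since the comparison chose the genes.

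**Figure D1:**
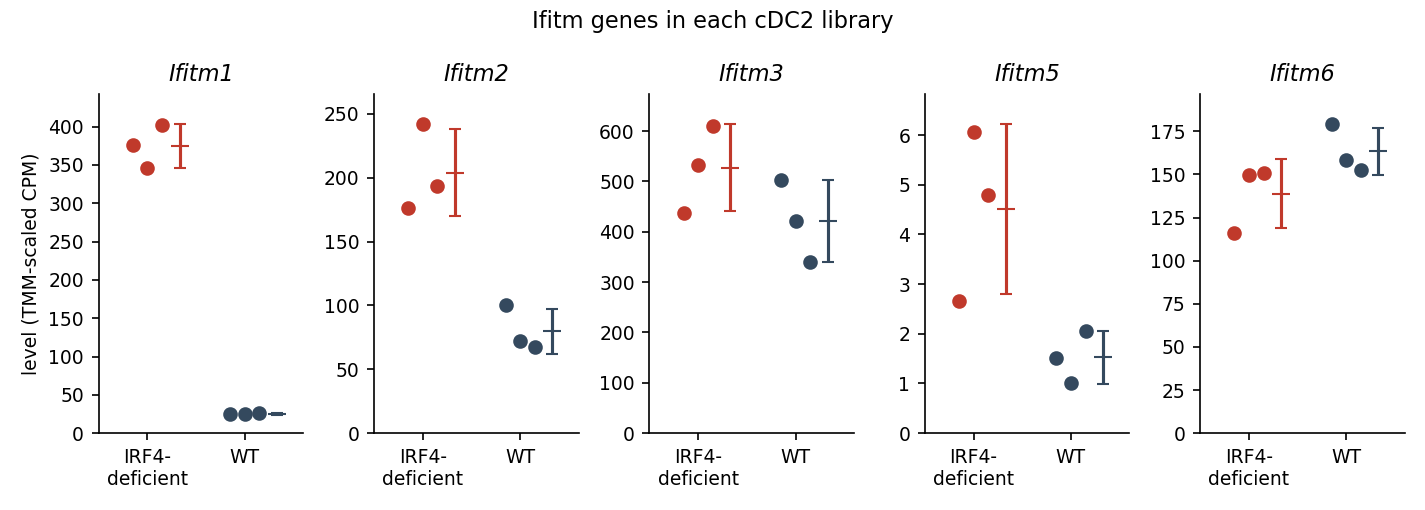
Level of each Ifitm gene (TMM-scaled CPM, vertical axis, a separate scale per gene) in each of 3 IRF4-deficient (red) and 3 WT (dark) libraries; dots are libraries in replicate order, and the bar beside them is the mean ± SD. Ifitm1 separates the genotypes by 14.9-fold, Ifitm3 overlaps between them, and Ifitm6 is slightly lower in IRF4-deficient cells.

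Because CPM grows with gene length, levels were compared between members per kilobase of annotated exons. Ifitm3 led the family in all 6 libraries, at 777 ± 127 CPM per kilobase in IRF4-deficient and 621 ± 119 in WT cells (SD, n = 3 each). In IRF4-deficient cells Ifitm1 (342 ± 25.9) and Ifitm2 (311 ± 51.9) came next and did not differ beyond their spread, followed by Ifitm6 (153 ± 22.0) and Ifitm5 (5.89 ± 2.24). With the longest transcript as the length in place of all exons, Ifitm1 was at 425 ± 32.1 CPM per kilobase there and above Ifitm2 in each library. In WT cells the order was Ifitm3, Ifitm6 (181 ± 15.3), Ifitm2 (122 ± 26.9), Ifitm1 (23.0 ± 0.771) and Ifitm5 (1.99 ± 0.686), the same in each of the 3 libraries. Ifitm1 thus stood next to last in WT cells. In IRF4-deficient cells it was level with Ifitm2 per kilobase of all exons, and above Ifitm2 with the longest transcript as length.

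Within a library, Ifitm3 exceeded Ifitm1 per kilobase by 1.88, 2.49 and 2.45 times in IRF4-deficient replicates 1 to 3, against 32.9, 27.6 and 21 times in WT replicates 1 to 3. This ratio is taken inside each library and does not depend on how libraries are scaled to each other. Ifitm1 made up 21.7 ± 2.78% of the summed family level in IRF4-deficient cells and 2.47 ± 0.483% in WT cells (SD, n = 3 each). Ifitm3 made up 48.7 ± 2.79% in IRF4-deficient and 65.3 ± 2.26% in WT cells, and Ifitm6 9.63 ± 0.418% and 19.2 ± 1.71%. Added over the 5 genes, the family stood at 1389, 1645 and 1735 CPM per kilobase in the IRF4-deficient libraries and 1115, 929 and 800.5 in the WT libraries. The groups did not overlap, and the mean was 1.68 times as high in IRF4-deficient cells.

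**Figure D2:**
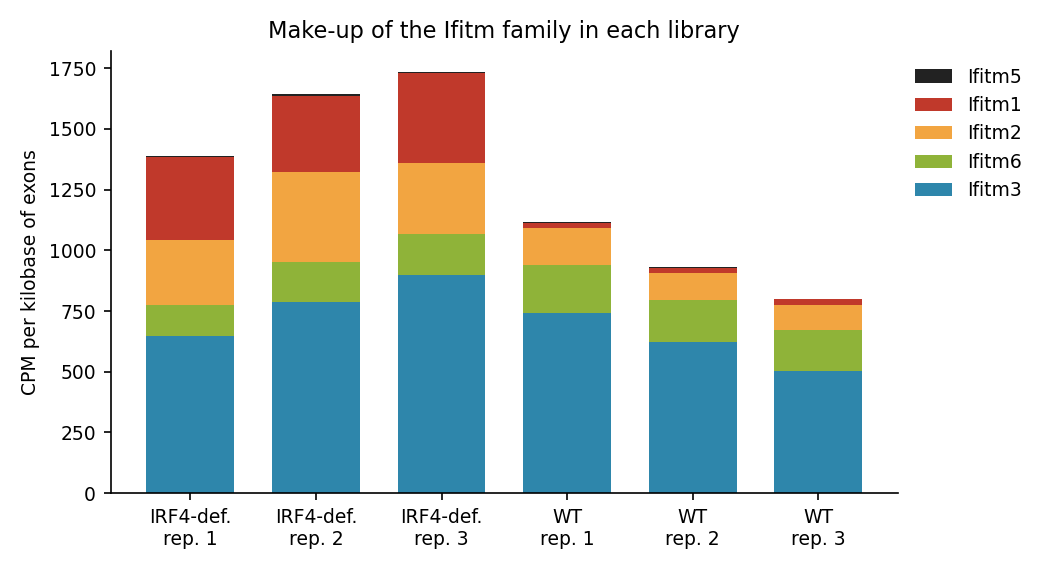
Stacked level of the 5 Ifitm genes (CPM per kilobase of exons, vertical axis) in each library, with 3 IRF4-deficient libraries on the left and 3 WT libraries on the right. The red Ifitm1 part averages 342 CPM per kilobase in IRF4-deficient and 23.0 in WT libraries, while the Ifitm3 part is the tallest in all 6.

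Closely related sequences limit how far reads can be assigned to 1 member. Coding sequences of Ifitm1, Ifitm2 and Ifitm3 shared 80.9 to 82.1% of aligned bases pairwise, while pairs with Ifitm5 or Ifitm6 shared 59.6 to 68.8%. Of the distinct 50-base stretches of the Ifitm1 transcripts, 5.02% also occurred in a transcript of another gene (Ifitm3 or the gene model Gm7676). The share was 10.0% for Ifitm3 (with Ifitm1, Ifitm2 and 2 further gene models), 22.8% for Ifitm2 (with Ifitm3 and 5 further gene models) and 0 for Ifitm5 and Ifitm6. A further model, Gm45717, reads through from Ifitm2 to Ifitm5 and holds 36.1% of the Ifitm2 and 25.3% of the Ifitm5 stretches. These shares are not the size of an error in a count. How the counting treated shared reads is not given in the sources used here. The effect on the values of Ifitm1, Ifitm2, Ifitm3 and Ifitm5 is therefore not known.

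Most other genes of the interferon response were lower in IRF4-deficient cells. Of 48 interferon-stimulated genes outside the Ifitm family, 30 were lower in IRF4-deficient cells, 2 were higher and 16 passed neither way in edgeR's test (threshold 0.05 on the adjusted p). That is 62.5% called lower, against 10.5% of all tested genes, and the median log2 fold change was -0.61 beside 0.003 over all tested genes. Usp18, which restrains interferon receptor signalling, fell to 33.9 ± 4.81 CPM in IRF4-deficient cells, against 110.1 ± 10.2 CPM in WT cells (SD, n = 3 each; edgeR adjusted p = 2.05e-08). Oasl2 fell 2.92-fold (edgeR adjusted p = 3.29e-09), and Zbp1, a sensor of Z-form nucleic acids, 2.49-fold. Herc6, a ubiquitin ligase family gene, fell 2.07-fold, and Mx1, which blocks influenza virus in mouse strains with an intact gene, 2.32-fold. The 2 members called higher were Ifi203, of the p200 family, at 596 ± 91.95 CPM in IRF4-deficient cells, against 216 ± 7.73 CPM in WT cells (edgeR adjusted p = 3.29e-09), and Oas3, with a log2 fold change of 0.62 (SE 0.13). Neither reached the size of the Ifitm1 difference. Ddx58, Trim25 and Epsti1 were not called and had log2 fold changes of 0.00, 0.02 and -0.01.

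Receptors and signalling genes of the interferon pathway went in both directions. Of 26 tested, 11 were called lower (42.3%) and 4 higher (15.4%), against 10.5% and 9.87% of all tested genes, with a median log2 fold change of -0.26. Stat2, a subunit of the factor formed below the type I receptor, fell 1.68-fold (edgeR adjusted p = 2.64e-06). Tyk2, a receptor-bound kinase, fell 1.70-fold and Ifnar2, a chain of the type I receptor, 1.43-fold. Ifngr1, a chain of the type II receptor, rose 1.29-fold to 711.5 ± 30.1 CPM in IRF4-deficient cells, against 553 ± 28.2 CPM in WT cells. Irf8 rose 2.67-fold. Jak1 (log2 fold change 0.11) and Irf7 (log2 fold change -0.30, edgeR adjusted p = 0.131) were not called. Usp18, Stat2, Irf7 and Irf9 are among the genes that stand in both this list and the previous one.

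Host factors that act, like the IFITM proteins, where viruses enter, are sensed or leave went in both directions. Of 14 tested, 4 were called lower (28.6%) and 2 higher (14.3%), against 10.5% and 9.87% of all tested genes, and the median log2 fold change was -0.09. Tlr7, an endosomal sensor of viral RNA, fell 1.86-fold and Unc93b1, which brings such sensors to endosomes, fell by 0.59 on the log2 scale. Serinc3, a membrane protein that reduces the infectivity of retroviruses, rose 1.42-fold to 1098 ± 11.3 CPM in IRF4-deficient cells, against 774 ± 72.0 CPM in WT cells. Ly6e, itself an interferon-induced membrane protein that blocks coronavirus entry, averaged 1294 ± 104 CPM in IRF4-deficient cells, against 1207 ± 197 CPM in WT cells, and was not called. Among 18 genes whose products bind or modify IFITM proteins, mostly known from human cells, 4 were called higher (22.2%) and 1 lower (5.56%), against 9.87% and 10.5% of all tested genes, with a median log2 fold change of 0.06. Fyn, a kinase that phosphorylates human IFITM3, rose 1.78-fold, and the tetraspanin gene Cd82 1.47-fold. Cd9, another tetraspanin, fell 2.82-fold to 19.7 ± 3.398 CPM in IRF4-deficient cells, against 55.5 ± 4.37 CPM in WT cells. Zdhhc20, which attaches palmitate to IFITM3, and Atp6v0b, a subunit of the proton pump, had edgeR adjusted p of 0.0429 and 0.0484, and each was called in 1 of the 6 fits that left out a library. Atp6v0b was called in 4 of 8 other alternatives and Zdhhc20 in all 8. Nedd4, Vapa, Cd81 and Vcp were not called, with log2 fold changes of -0.09, 0.12, 0.14 and 0.02. Of the other CD225 family genes, Prrt2 and Tmem91 were tested and not called, with Prrt2 at 4.63 CPM in IRF4-deficient cells, against 2.38 CPM in WT cells, and an unadjusted p of 0.0702 in edgeR. Without IRF4-deficient replicate 1, Prrt2 was called (edgeR adjusted p = 0.0487).

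**Figure D3:**
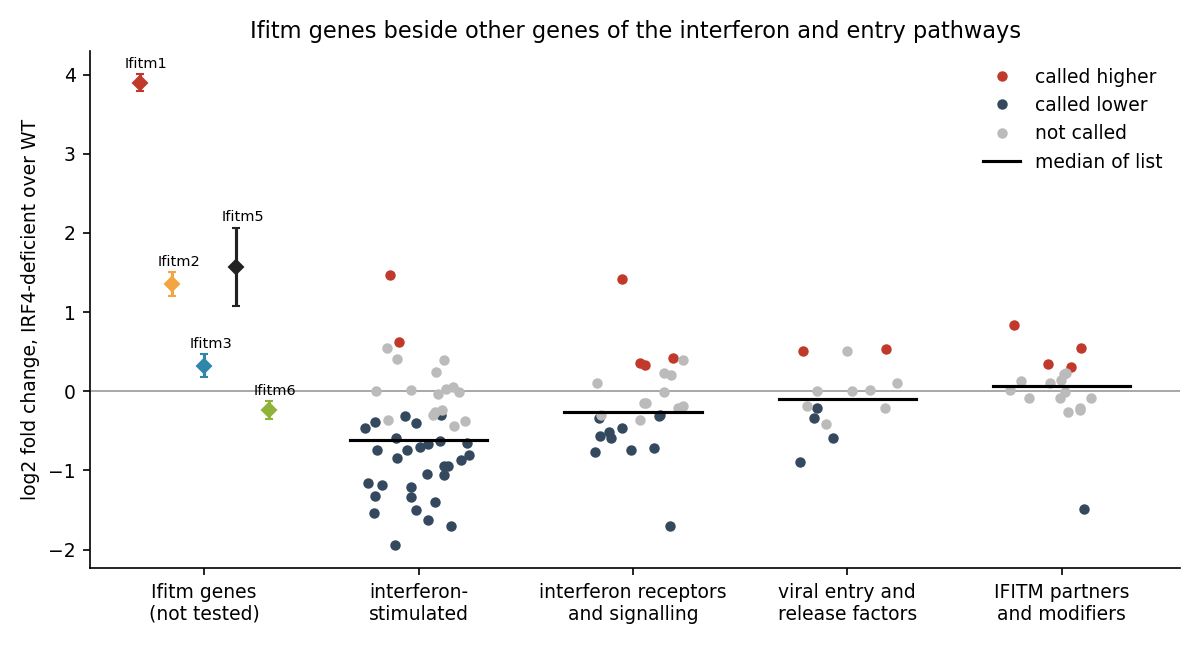
Log2 fold change (IRF4-deficient over WT, vertical axis) of the 5 Ifitm genes with their SE (left, not tested) and of the tested genes in 4 lists, coloured by edgeR call; black lines are list medians. Ifitm1 at 3.90 lies above all listed genes, and the interferon-stimulated list has its median at -0.61.

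Genes around the cluster were compared for their shared position. Of 19 gene rows that start within 250 kb of it, 16 were tested, 1 was called higher and 1 lower (12.5% against 20.4% of all tested genes), with a median log2 fold change of 0.07. B4galnt4, a glycosyltransferase gene that starts 93.9 kb from the Ifitm1 start, had counts of 21, 21 and 25 in IRF4-deficient and 0, 5 and 4 in WT libraries (log2 fold change 2.76, SE 0.73, edgeR adjusted p = 0.00991). Without WT replicate 1 it was not called, with an edgeR adjusted p of 0.05 after rounding. Pkp3, a desmosome gene 111.0 kb away, fell to 16.4 ± 2.16 CPM in IRF4-deficient cells, against 26.2 ± 5.18 CPM in WT cells (edgeR adjusted p = 0.0168), and was not called without IRF4-deficient replicate 1 (0.0584) or WT replicate 2 (0.147). Athl1 (Pgghg), the nearest tested gene on the Ifitm5 side, had a log2 fold change of 0.43 (SE 0.18) and was not called (edgeR adjusted p = 0.105). The 13 further tested neighbours were not called either: Ric8 (Ric8a), Bet1l, Psmd13, Sirt3, Sigirr, Ptdss2, Rnh1, Hras1 (Hras), Lrrc56, 1600016N20Rik (Lmntd2), Rassf7, Phrf1 and Irf7. Syce1, Zfp941 and Cox8b were too low to test. Several of these neighbours overlap each other on opposite strands (Ric8 and Bet1l, Phrf1 and Irf7), where reads cannot be told apart without strand.

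**Figure D4:**
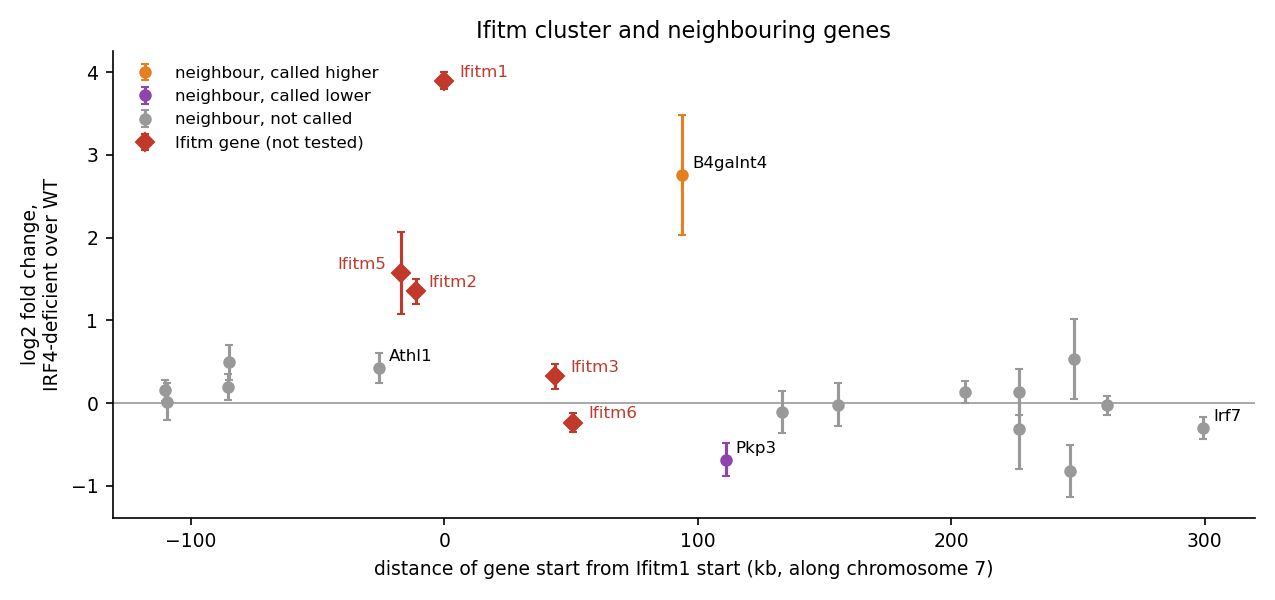
Log2 fold change with SE (vertical axis) of the 5 Ifitm genes (diamonds, not tested) and of the tested neighbours (dots) against the distance of each gene's start from that of Ifitm1 in kb along chromosome 7. Ifitm1 at 3.90 stands between Ifitm2 at 1.35 and Ifitm3 at 0.32, and 14 of the 16 neighbours were not called.

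Marker genes of other cell types were summed as a measure of what else the libraries could hold, since fewer cells of a type and less RNA per cell cannot be told apart in bulk samples. Calls are read against 9.87% of all tested genes called higher and 10.5% called lower. Of 7 core markers of dendritic cells themselves, 6 were called lower and 1, Itgax, higher. Their sum was 27930 to 28950 CPM in IRF4-deficient cells, against 31400 to 35120 CPM in WT cells, and the groups did not overlap. Among them, Flt3 averaged 250.4 CPM in IRF4-deficient cells, against 412.5 CPM in WT cells, and Zbtb46 42.3 CPM, against 80.95 CPM in WT cells. Of 10 monocyte markers, 5 were called higher and 1 lower. Their sum was 3757 to 4945 CPM in IRF4-deficient cells, against 3759 to 4014 CPM in WT cells. The most abundant of them, Itga4, was called lower, at 1776 CPM in IRF4-deficient cells, against 2861 CPM in WT cells. Without it the sum was 2208 to 2870 CPM in IRF4-deficient cells, against 849.5 to 1224 CPM in WT cells, and the groups did not overlap. Of 11 red pulp macrophage markers, 6 were called higher and 1 lower, and their sums, given beside Ifitm3, did not overlap either. Emr1 was the 1 called lower, at 195.8 CPM in IRF4-deficient cells, against 298.0 CPM in WT cells. Hmox1, Spic, C1qc and Axl were not called. Markers of type 1 conventional dendritic cells summed to 307.3 to 416.6 CPM in IRF4-deficient cells, against 240.7 to 250.8 CPM in WT cells, with 5 of 8 called higher and 1 lower. The 1 called lower was Batf3, at 26.95 CPM in IRF4-deficient cells, against 66.33 CPM in WT cells. Without Irf8, the most abundant, the sum was 199.9 to 277.1 CPM in IRF4-deficient cells, against 189.5 to 202.0 CPM in WT cells, and the groups overlapped. The macrophage sum, the monocyte sum without Itga4 and the type 1 sum with Irf8 were higher in the same libraries as Ifitm1 and Ifitm2. The monocyte sum with Itga4 overlapped between genotypes. The cDC2 sum was also higher, at 3065 to 3405 CPM in IRF4-deficient cells, against 2469 to 2594 CPM in WT cells. Without Itgam that sum was lower, at 1344 to 1436 CPM in IRF4-deficient cells, against 1899 to 1946 CPM in WT cells. The neutrophil and the natural killer and innate lymphoid sums, given below, were higher too. The core dendritic cell, basophil and mast cell, and progenitor sums were lower.

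Several lists of rarer cells were low. Neutrophil markers, of which 7 genes were used, summed to 35.0 to 47.6 CPM in IRF4-deficient cells, against 13.8 to 34.4 CPM in WT cells, and 1 of 2 tested was called higher. Csf3r made up most of that sum, while S100a8, a defining neutrophil gene, had 1, 2 and 0 counts in IRF4-deficient and 9, 37 and 3 counts in WT libraries. Basophil and mast cell markers summed to 1.11 to 2.84 CPM in IRF4-deficient cells, against 7.38 to 11.6 CPM in WT cells over 3 genes, nearly all of it from Hdc, the 1 gene tested, which was called lower. Natural killer and innate lymphoid markers summed to 67.8 to 112.5 CPM in IRF4-deficient cells, against 32.4 to 40.2 CPM in WT cells over 9 genes, of which 3 of 5 tested were called higher. These were Il7r, Gata3 and Il2rb, with Il7r at 58.8 CPM in IRF4-deficient cells, against 27.2 CPM in WT cells, and Gata3 at 17.8 CPM, against 0.380 CPM in WT cells. The natural killer genes Nkg7 (0.810 CPM in IRF4-deficient libraries, against 1.37 CPM in WT libraries) and Gzma (0.771 CPM in IRF4-deficient libraries, against 1.08 CPM in WT libraries) were near 0, and Eomes had no count in the IRF4-deficient libraries. Platelet markers summed to at most 1.52 CPM in any library. Progenitor markers, mostly Kit, were not low, at 412.4 to 504.0 CPM in IRF4-deficient cells, against 605.6 to 693.1 CPM in WT cells. Without Kit the sum was 37.3 to 49.0 CPM in IRF4-deficient cells, against 11.6 to 19.3 CPM in WT cells. Kit was called lower, and Cd34 and Meis1 higher. The B cell, T cell, plasmacytoid dendritic cell and erythroid sums overlapped between genotypes. The part of these cells in the Ifitm values was not tested.

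The genes most like each Ifitm gene over the 6 libraries were ranked by Pearson correlation of log2 CPM among 9167 genes (9168 for Ifitm5), as a description, since 6 libraries in 2 genotypes give high values to any gene with a similar genotype gap. Those closest to Ifitm1 were Rgl1, Cdh1, Plcb1, Vegfa and Rasa3, with r of 0.997 to 0.999. All were higher in IRF4-deficient cells, as with Vegfa at 51.9 CPM against 7.10 CPM in WT cells. Those closest to Ifitm2 were Tcn2, Ppa1, Clec5a, Chsy1 and Tiam2 (r of 0.992 to 0.996), and to Ifitm3 they were Cstf2, Trerf1, Sep15, Nucb1 and Slc45a3 (0.986 to 0.996). For Ifitm5 they were Stk16, Stx3, Cd3eap, Zfp395 and Ppif (0.981 to 0.991), and for Ifitm6 Baiap2l1, Rcn1, Tmem181a, Tmub1 and Dram2 (0.965 to 0.993). The 5 lists share no gene, and no Ifitm gene is among those closest to another.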

How the data were processed

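Raw counts, 1 whole number per gene symbol and library, were deposited by the authors for 3 IRF4-deficient and 3 WT libraries of splenic cDC2s. STAR, HTSeq and DESeq2 with genome build mm10 are named per the submitters' processing notes, without versions. The annotation, strand setting, treatment of shared reads and row filter were not given in the sources used here. WT columns were matched to sample titles through the labels' source names. No column was left unused.

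Genes were kept by filterByExpr, scaled by TMM and compared between genotypes by the robust quasi-likelihood test of edgeR 4.0.16 (glmQLFit, glmQLFTest) in R 4.3.3. Calls needed an adjusted p (Benjamini-Hochberg over 11934 genes) under 0.05. The p-values measure only the spread between these libraries. Fold changes carry a prior count of 0.125, and the SE comes from the quasi-likelihood F statistic. The steps were tested on simulated data. Replicates differed beyond counting noise (chi-square over its degrees of freedom between 7.66 and 15.9), so each library counted once. Locations and lengths were read from GENCODE M21 (GRCm38, equal to mm10). Motifs were exact matches in RefSeq promoter windows, and coding sequences were aligned globally with Biopython 1.88. Protein sequences were not used here, and 1 listed gene is not reported here.

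The members and gene lists were chosen with earlier results of these data known. Named are the members, Irf4, in each list up to 6 called genes with the smallest p and any with a mean of at least 50 CPM, all genes near the cluster and the 5 genes most like each member. Prrt2 and Tmem91, and the single markers of other cell types, of cDC2s and of dendritic cells as a whole, were named after their values were seen. Alternatives were DESeq2 1.42.0, limma-voom (limma 3.58.1), other scaling factors, other filters, a fit without robust shrinkage, a replicate block, other gene lengths, a window of 500 kb and leaving out each library.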

Additional observations from a re-analysis of the deposited data

How the results depend on the processing

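The log2 fold changes of the Ifitm genes moved by less than the spread between replicates under each alternative that kept all libraries and could give them. Leaving out 1 of 3 libraries moves a group mean by less than that spread in nearly any data, so those fits are given only as ranges. Without 1 library the log2 fold changes ran from 3.84 to 3.96 for Ifitm1, 1.22 to 1.54 for Ifitm2, 0.19 to 0.47 for Ifitm3, 1.31 to 1.85 for Ifitm5 and -0.30 to -0.12 for Ifitm6. Over the tools, scalings and filters they ran from 3.89 to 3.90, 1.35 to 1.36, 0.32 to 0.33, 1.51 to 1.58 and -0.25 to -0.23, with Ifitm5 removed by the filter of 5 CPM in 3 libraries. Scaling moved the median of all genes by less than 0.01. Leaving out 1 library gave 1779 to 2431 called genes in the whole table, 30 to 33 interferon-stimulated, 12 to 16 interferon signalling, 4 to 7 entry and release, 3 to 4 IFITM partner, 0 to 1 CD225 relative and 1 to 3 neighbouring genes, against 2429, 32, 15, 6, 5, 0 and 2 with all libraries. The partner count was 3 without IRF4-deficient replicate 2 or 3 or WT replicate 2. The CD225 count was 1 without IRF4-deficient replicate 1. The neighbour count was 1 without IRF4-deficient replicate 1 or WT replicate 1 or 2, and 1 with the 5 CPM filter, which removes B4galnt4. With the longest transcript as length, Ifitm1 stood at 424.6 CPM per kilobase in IRF4-deficient and 28.5 in WT cells, and Ifitm6 at 200.9 in WT cells. Replicates with the same number in their sample titles did not deviate together (correlations of -0.006, 0.052 and -0.012). The WT numbers in the column names differ from those in the titles. By column names the correlations were -0.017 and -0.01 for IRF4-deficient replicates 2 and 3. The labels name no pairing, these values cannot settle whether one existed, and the main fit used none. The fit with the replicate block, by title numbers, called 2267 genes. For Ifitm5 the counts of 11 to 49 per library limit the precision.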
